A study of Homo sapiens with 16 samples.

Results

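The EZH2 library of LNCaP cells that carried the guide sgPRKCI and received enzalutamide held 24517 peaks on chromosomes 1 to 22 and X, and 10897 of them (44.4%) lay at the active-promoter mark H3K4me3, away from the Polycomb mark H3K27me3, and away from every EZH2 peak of control cells. These 10897 peaks, called member peaks here, were chosen by measured calls. An EZH2 peak had to overlap an H3K4me3 peak of the same cells by at least 1 bp (14307 peaks, 58.4%), no H3K27me3 peak of the same cells (722 of the 14307 were left out), and no EZH2 peak of cells with the control guide and DMSO (2688 of the remaining 13585 were left out, 19.8%). The overlap with H3K4me3, the lack of H3K27me3 and the lack of a call in the control library are therefore the rule and not findings. The whole series holds 57466 EZH2 peaks in 4 libraries on these chromosomes.

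LNCaP is an established androgen-responsive prostate carcinoma line, and the cells were profiled by CUT&RUN, in which a protein A/G-micrococcal nuclease fusion cuts out the chromatin around an antibody. All cells grew in medium with 10% fetal bovine serum, and a nucleosome spike-in was added to every reaction. The 4 conditions were the guide sgControl (called sgC) with DMSO, sgPRKCI with DMSO, sgC with 10 µM enzalutamide and sgPRKCI with 10 µM enzalutamide, each for 72 h. PRKCI encodes atypical protein kinase C iota, and enzalutamide is an antiandrogen. Each antibody (EZH2, H3K4me3, H3K27me3) gave 1 library in each condition. No difference below has a replicate check, and whether the cells were 1 clone or a pool is not given in the sources used here. A range in brackets after a share is an exact 95% binomial interval on a share and covers counting error only.

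EZH2 is the methyltransferase of Polycomb repressive complex 2 (PRC2), which writes H3K27me3 over silenced developmental genes. H3K4me3 is written by the SET1/MLL complexes on the nucleosomes that follow the start of active genes, above all at CpG-rich promoters. In prostate cancer cells EZH2 has also been described as acting apart from PRC2, at active genes.

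The promoters of 5 genes are shown as examples of high EZH2 heights and of H3K4me3 without EZH2. The first 3 carried a member peak with a height above the members' 90th percentile of 118.3, and the last 2 carried H3K4me3 with no EZH2 peak in the same cells. Each run is the RefSeq promoter (GRCh38.p14) from 250 bases before to 50 after a gene start, read 5′ to 3′ on the gene's strand, with CG dinucleotides in capitals. At the first 3 genes the peak summit lay further into the gene than the end of the run.

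GPS1 (chr17:82051648-82051947, plus strand): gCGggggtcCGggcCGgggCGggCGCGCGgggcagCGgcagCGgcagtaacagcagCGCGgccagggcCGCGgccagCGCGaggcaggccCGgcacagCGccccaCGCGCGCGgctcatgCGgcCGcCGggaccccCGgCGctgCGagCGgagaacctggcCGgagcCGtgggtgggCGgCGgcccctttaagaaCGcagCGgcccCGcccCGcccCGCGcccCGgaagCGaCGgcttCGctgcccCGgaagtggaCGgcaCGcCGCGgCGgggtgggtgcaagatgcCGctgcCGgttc

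QARS1 (chr3:49104708-49105007, minus strand): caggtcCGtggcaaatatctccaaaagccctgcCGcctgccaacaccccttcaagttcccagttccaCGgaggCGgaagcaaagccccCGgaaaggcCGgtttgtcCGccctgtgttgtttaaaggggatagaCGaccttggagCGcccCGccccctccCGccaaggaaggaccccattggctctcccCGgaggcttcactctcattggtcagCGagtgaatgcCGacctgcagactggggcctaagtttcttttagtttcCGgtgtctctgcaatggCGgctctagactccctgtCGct

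PRKCI (chr3:170222174-170222473, plus strand): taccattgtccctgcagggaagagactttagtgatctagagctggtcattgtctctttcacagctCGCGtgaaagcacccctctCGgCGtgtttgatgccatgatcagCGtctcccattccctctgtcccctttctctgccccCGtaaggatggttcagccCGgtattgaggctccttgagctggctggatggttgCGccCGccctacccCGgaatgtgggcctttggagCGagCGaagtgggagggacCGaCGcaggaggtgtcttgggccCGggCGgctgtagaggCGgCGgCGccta

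KLK3 (chr19:50854665-50854964, plus strand): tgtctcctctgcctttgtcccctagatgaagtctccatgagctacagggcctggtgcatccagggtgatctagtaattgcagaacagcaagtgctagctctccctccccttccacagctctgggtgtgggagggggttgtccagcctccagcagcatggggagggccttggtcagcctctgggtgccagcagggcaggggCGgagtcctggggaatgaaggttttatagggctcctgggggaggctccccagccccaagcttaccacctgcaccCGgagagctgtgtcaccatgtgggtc

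ZNF347 (chr19:53159004-53159303, minus strand): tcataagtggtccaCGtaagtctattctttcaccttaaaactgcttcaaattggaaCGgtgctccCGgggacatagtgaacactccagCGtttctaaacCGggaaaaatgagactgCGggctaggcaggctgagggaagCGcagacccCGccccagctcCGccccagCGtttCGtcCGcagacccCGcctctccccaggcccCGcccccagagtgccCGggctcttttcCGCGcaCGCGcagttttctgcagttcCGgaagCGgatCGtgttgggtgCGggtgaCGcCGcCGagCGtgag

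GPS1, a subunit of the COP9 signalosome, had 50 CG dinucleotides in its 300 bases, an EZH2 height of 194.1 and an H3K4me3 height of 362.9. A height is the number of fragments at a peak's summit divided by the library's coverage, estimated from its lowest local background, so it reads as times background. QARS1, the glutaminyl-tRNA synthetase, had 17 CG dinucleotides and heights of 149.6 for EZH2 and 271.7 for H3K4me3. PRKCI had 19 and heights of 128.7 and 209.1. KLK3, which encodes prostate-specific antigen, had 2 CG dinucleotides and an H3K4me3 height of 33.1. ZNF347, a zinc-finger gene, had 27 CG dinucleotides, as many as the median promoter with a member peak, and an H3K4me3 height of 52.5.

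Member peaks were wide and high for EZH2. Their median width was 1297 bp (quartiles 767 and 1829 bp), their median height 62.7 (7.84 to 444.3), and their median fold enrichment over the caller's local background 18.9 (2.47 to 112.3). EZH2 peaks of the same library at H3K27me3 without H3K4me3, which number 10046, had a median width of 423 bp, a height of 13.1 and a fold enrichment of 6.83. The 2688 peaks left out for a control EZH2 peak were like the members, with a median width of 1356 bp and a height of 67.3. In sgC DMSO the 2730 EZH2 peaks at H3K4me3 without H3K27me3 had a median width of 414 bp and a height of 15.9. At the edges of the rule, the lowest −log10 q of a member was 4.05, where the list itself ends, and 844 members (7.75%) were under 10. Of the members, 10489 (96.3%) lay wholly inside H3K4me3 peaks and 12 were under 50% inside. Another 99 had an H3K27me3 peak within 1 kb and 71 had a control EZH2 peak within 1 kb, while 22 of the peaks left out for H3K27me3 touched it over under 10% of their length.

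Member peaks followed the H3K4me3 beneath them in height, width and position. The 10897 members lay in 10389 H3K4me3 peaks, of which 9931 held 1 member, 417 held 2 and 41 held 3 or more. With the highest member taken for each H3K4me3 peak, EZH2 stood at a median of 50.8% of the H3K4me3 height (10th percentile 41.0%, 90th percentile 65.8%). Pearson's r between the log2 heights was 0.945 and Spearman's rho 0.956 across 10389 sites of this library pair, a description of sites that share their libraries. With every member counted, r was 0.877. In 5 bins of about equal size from the lowest to the highest H3K4me3, the median EZH2 height was 18.3, 41.8, 65.3, 88.9 and 118.3, and the median width 435.5, 1024, 1380, 1666.5 and 2065.5 bp. The ratio of the 2 heights was 58.9%, 51.1%, 50.4%, 50.2% and 49.1%. A member was 68.7% as wide as its H3K4me3 peak (median; r of the log2 widths 0.851), and the summits lay a median of 61 bp apart. Only peaks above the call threshold enter, which lifts the ratio where H3K4me3 is low.

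**Figure D1:**
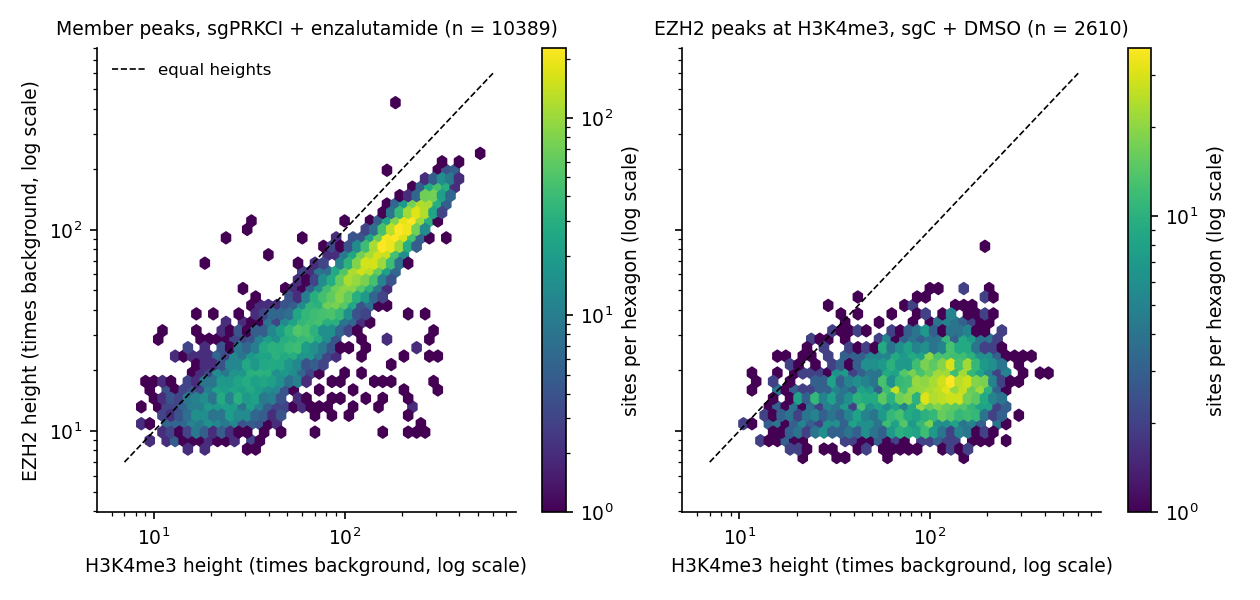
EZH2 summit height (vertical) against H3K4me3 summit height (horizontal) at the same site, both in times background on log scales, with the highest EZH2 peak of each H3K4me3 peak; colour gives sites per hexagon and the dashed line marks equal heights. The 10389 sites with a member peak form a band at about 50.8% of the H3K4me3 height, and the 2610 sites of sgC DMSO have EZH2 heights near 16.3 over the whole H3K4me3 range.

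In the other EZH2 libraries heights were less related to H3K4me3. At their own called H3K4me3 sites without H3K27me3, r was 0.241 in sgC DMSO (2610 sites), 0.137 in sgPRKCI DMSO (681 sites) and 0.185 in sgC enzalutamide (657 sites). EZH2 stood at 17.2%, 19.7% and 19.1% of the H3K4me3 height. Only called peaks enter here too. In sgC DMSO their EZH2 heights lay near the call threshold, with a 10th percentile of 11.1 and a 90th percentile of 24.4. So narrow a range lowers r, which limits the comparison with the members. The sites that the rule left out because sgC DMSO had an EZH2 peak there lay on nearly the same line as the members. At 2665 such H3K4me3 peaks the ratio was 52.1% and r 0.948, and in the same 5 bins of H3K4me3 height the ratio was 63.9%, 53.1%, 51.7%, 50.9% and 49.6%. In each bin this median was 0.48 to 4.99 percentage points above that of the members. The H3K4me3 libraries of the other conditions ranked the members about as well as that of the same cells. Over 10135 sites with H3K4me3 in all 4 conditions, the member heights had an r of 0.931 with H3K4me3 of sgC DMSO, 0.932 with sgPRKCI DMSO, 0.946 with sgC enzalutamide and 0.944 with sgPRKCI enzalutamide. The H3K4me3 libraries had an r of 0.939 to 0.972 among themselves. EZH2 height moved with H3K4me3 height in these values. Whether H3K4me3 fragments carried into this EZH2 library account for the calls was not tested, and with 1 library such fragments and EZH2 at these sites cannot be told apart.

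EZH2 calls in this library were the more frequent the higher the H3K4me3 peak. Of 18041 H3K4me3 peaks without H3K27me3, 12945 (71.8%) held an EZH2 call of any kind, and 10384 held a member. The 71.8% includes calls that the rule leaves out for a control EZH2 peak. It is the background for shares with any call, and 10384 of 18041 is that for shares with a member. With the H3K4me3 peaks in 10 bins of about equal size by height, the share was 4.07% in bin 1, the lowest, then 9.29%, 30.6% and 76.6%, and 99.1% in bin 5. Every peak of the highest 4 bins held a call. The share passed 50% between H3K4me3 heights of 26.6 and 28.7. In the other conditions 15.7% (sgC DMSO), 3.62% (sgPRKCI DMSO) and 3.59% (sgC enzalutamide) of such H3K4me3 peaks held an EZH2 call. There the share was highest in bin 5, at 23.04%, 6.53% and 7.53%, and was 15.95%, 1.68% and 1.38% in bin 10. The 4 EZH2 libraries had coverages of 1.35 (sgC DMSO), 1.13 (sgPRKCI DMSO), 1.68 (sgC enzalutamide) and 1.53 (sgPRKCI enzalutamide). These were estimated from the lowest local background and are not read totals. Whether depth accounts for the different shares was not tested.

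**Figure D2:**
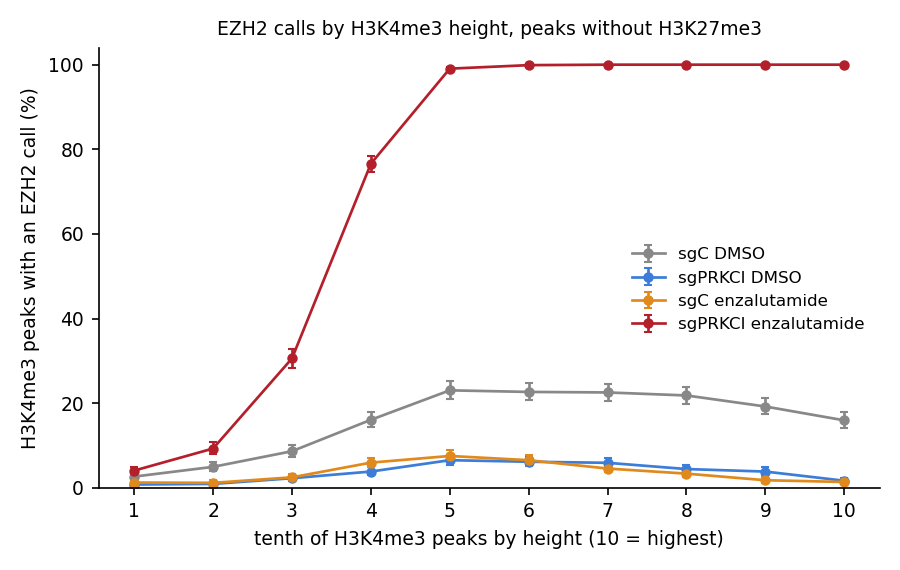
Share of H3K4me3 peaks without H3K27me3 that hold an EZH2 call (vertical, %) by bin of H3K4me3 height within each condition (horizontal, 10 bins of about equal size, 10 is highest); points are shares and bars exact 95% binomial intervals. The sgPRKCI enzalutamide line runs from 4.07% to 100%, and the other 3 lines are highest in bin 5, at 23.04%, 7.53% and 6.53%.

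Among the 5096 H3K4me3 peaks that held no EZH2 call, the median H3K4me3 height was 15.1, against 129.4 at the peaks with a member. The highest uncalled peak had an H3K4me3 height of 108.5. The 5 uncalled peaks of highest H3K4me3 fold enrichment, a ranking other than by height, had H3K4me3 heights of 37.4 to 71.2. These 5 lay at LOC105374988 on chromosome 6 (71.2), at a site on chromosome 5 (71.2) and a site on chromosome 1 (38.8) without an annotated coding or lncRNA start within 1 kb, at LINC03049 on chromosome 19 (37.4) and at ZNF347 (52.5). All 5 had H3K4me3 in the 4 conditions. At ZNF347 the H3K4me3 height with DMSO was 36.8 under sgC and 56.7 under sgPRKCI, and with enzalutamide 32.1 and 52.5, so it was higher under sgPRKCI in both.

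Outside the library they were chosen in, members had H3K4me3 and mostly lacked EZH2 calls. H3K4me3 lay at 98.2% of them in sgC DMSO, 99.0% in sgPRKCI DMSO and 99.3% in sgC enzalutamide, and 10632 (97.6%) had it in all 4 conditions. H3K27me3 peaks lay at 50, 55 and 60 members in the same order. EZH2 was called at 142 members in sgPRKCI DMSO (1.303%, 1.10 to 1.53) and at 170 in sgC enzalutamide (1.56%, 1.34 to 1.81). Either library had a call at 288 members (2.64%, 2.35 to 2.96) and both at 24. The rule had already removed sites with a control EZH2 call. Without that condition 8.49% of the peaks had a call in either library. Among all H3K4me3 peaks without H3K27me3 of the same condition, 3.62% (sgPRKCI DMSO) and 3.59% (sgC enzalutamide) held an EZH2 call. At the 142 members the median EZH2 height was 14.2 in sgPRKCI DMSO and 62.7 in the library of the members, with an r of 0.251 between the log2 heights. At the 170 it was 10.7 in sgC enzalutamide and 33.7, with an r of 0.091.

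Of the 5 members of highest fold enrichment with a call in both of these libraries, 4 are described here. They lay at MED13L, a subunit of the Mediator kinase module, at MIB1, a ubiquitin ligase of Notch signalling, at STX17, a syntaxin of autophagosome fusion, and at SH3BP5. At MED13L (chr12:116276084-116278189) the EZH2 height was 14.2 in sgPRKCI DMSO and 10.7 in sgC enzalutamide, against 81.7 in the library of the members, with no sgC DMSO call by the rule. Over the 4 sites the heights ran from 11.5 to 19.5, from 10.1 to 12.5 and from 64.7 to 110.4 in that order of libraries. The sites were picked by their fold enrichment in the library of the members, which sets the place of the third range.

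Most members were at gene starts. A start of a protein-coding gene lay within 1 kb of 8364 members (76.8%, 76.0 to 77.5), a lncRNA start and no coding start of 516 (4.74%), 1096 (10.1%) lay inside a coding gene away from starts, and 921 (8.45%) lay elsewhere. The H3K4me3 peaks without H3K27me3 were at coding starts in 60.8% of cases, and those with no EZH2 call in 11.7%. EZH2 peaks of the same library that were no members were at coding starts in 29.2%, a pool that includes those at H3K27me3 without H3K4me3 (11.8%). The 2688 peaks left out for a control EZH2 peak were at coding starts in 83.4%. For EZH2 peaks at H3K4me3 without H3K27me3 the share was 82.5% in sgC DMSO, 78.7% in sgPRKCI DMSO and 75.1% in sgC enzalutamide. The share of the members was thus within the range of other EZH2 peaks at H3K4me3. Members at coding starts had a median EZH2 height of 73.2 over an H3K4me3 height of 148.8, those at lncRNA starts 33.3 over 72.6, those inside genes 21.6 over 50.3, and those elsewhere 24.2 over 51.0. For H3K4me3 peaks with heights of 40 to 60, a range picked after the values were seen, an EZH2 call was present at 97.6% (96.1 to 98.6) of those at coding starts, 92.5% (85.8 to 96.7) at lncRNA starts, 92.6% (87.9 to 95.9) inside genes and 91.9% (87.0 to 95.4) elsewhere. Over all heights these shares were 94.6%, 68.0%, 27.1% and 39.6%.

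Some members lay within 1 kb of the starts of more than 1 coding gene. For genes with no RefSeq promoter both annotated ends counted as starts. Of the members 7048 had 1 coding gene, 1264 had 2 and 52 had 3 or more within 1 kb, with a median width of 1386 bp for 1 gene and 1903 bp for more. Among small RNA genes, 185 of 443 tRNA genes had a member within 1 kb, as did 179 of 1911 miRNA genes, 110 of 1196 snoRNA genes and 21 of 154 snRNA genes. H3K4me3 lay within 1 kb of 273 tRNA, 271 miRNA, 160 snoRNA and 46 snRNA genes, so the 4 kinds differ in how many carry the mark. Copies of these genes are alike in sequence, and how reads were shared between copies is not given in the sources used here. By chromosome, the share of H3K4me3 peaks without H3K27me3 that held a member was highest on X (75.1%). It was next highest on chromosome 19 (68.7%) and lowest on chromosome 8 (46.7%). Over all chromosomes 10384 of 18041 such peaks held a member. The share with any EZH2 call was 82.7% on X, 78% on chromosome 19 and 72.4% on chromosome 8, beside 71.8% over all chromosomes. Chromosome 8 was thus near the common share for any call. On X the median member height was 37.2 and the H3K4me3 height at members 78.3, the lowest of the 23 chromosomes for both.

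Summits of members lay just inside the gene. At 3017 genes with a single annotated start and strand, the highest member's summit lay a median of 167 bp into the gene (quartiles 111 and 303 bp), and 90.2% (89.0 to 91.2) were downstream of the start. In bins of 50 bp, 22.4% of these genes had the summit in the bin centred 125 bp into the gene. The bin at 325 bp had 7.68% (232 genes) and that at 275 bp 6.99% (211 genes), too close to mark a second rise. The H3K4me3 summits under members lay a median of 239 bp into the gene, with 14.7% at 125 bp and 13.5% at 325 bp. Gene by gene, the EZH2 summit lay a median of 16 bp closer to the start than the H3K4me3 summit, and 47.6% of pairs were within 50 bp.

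EZH2 summits of the other libraries at H3K4me3 without H3K27me3 were spread over both sides of the start. They were downstream at 64.6% (61.1 to 68.1) of 727 genes in sgC DMSO, 61.5% of 169 in sgPRKCI DMSO and 62.8% of 172 in sgC enzalutamide. In sgC DMSO 14.2% were in the bin at 125 bp and 6.19% in the bin 125 bp upstream, where members had 1.06%. These peaks were lower than most members. Of members with an EZH2 height under 25, 297 could be placed in this way, and 73.1% (67.6 to 78.0) of them were downstream, with a median of 118 bp.

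**Figure D3:**
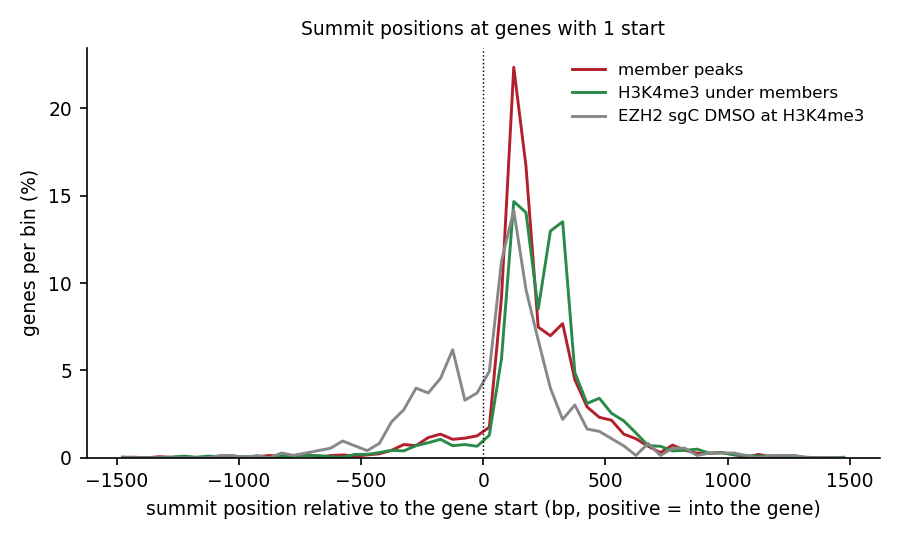
Position of peak summits relative to the start of genes with a single annotated start (horizontal, bp, positive values lie in the gene) as the share of genes in bins of 50 bp (vertical, %). Member peaks have 22.4% of genes at 125 bp and 7.68% at 325 bp, H3K4me3 has 14.7% and 13.5% there, and EZH2 in sgC DMSO has 6.19% (45 genes) at 125 bp upstream.

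Of 19974 protein-coding genes, 9174 (45.9%) had a member within 1 kb of a start. Another 3615 had an EZH2 peak of the same library that was no member, 465 had H3K4me3 and no EZH2 peak, and 6720 had neither. Of 12483 genes with H3K4me3 at a start, 12018 (96.3%) had an EZH2 peak of this library and 9174 (73.5%) had a member, the background for the gene lists below. The lists and the members were chosen with earlier results of these data known, and each list is described by its counts and medians. Over all genes with a member the median EZH2 height was 78.4 and the median H3K4me3 height beneath it 156.7.

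Genes of protein synthesis had a member in most cases. Of 79 cytosolic ribosomal protein genes 74 had one, and 3 had another EZH2 peak. At the ribosomal protein gene RPS2 the H3K4me3 height with DMSO was 234.0 under sgC and 225.1 under sgPRKCI, and with enzalutamide 295.6 and 278.1. EZH2 was called at its start in the last of these conditions alone, at a height of 148.3. H3K4me3 was thus high in all 4 libraries at this gene. Of 48 initiation and elongation factor genes 47 had a member, among them EIF2A (EZH2 height 190.8), EIF2B5 (158.1) and EIF3B (162.7), and EEF1A1 had an EZH2 peak that was no member. The median member height was 102.3 over an H3K4me3 height of 202.3 for the ribosomal proteins, and 109.1 over 204.8 for the factors. Of the genes with H3K4me3 in these lists, 77 of 78 and 48 of 48 had any EZH2 peak of this library.

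Other groups of broadly expressed genes also had members. Their shares among genes with H3K4me3 ran from 80% for H3K4 methyltransferase complexes and 80.5% for RNA exosome and decay to 97.9% for the spliceosome, beside the 73.5% of all genes with H3K4me3. A member lay at 38 of 41 genes of the proteasome, which degrades ubiquitin-tagged proteins (PSMA7, height 168.6; PSMD2, 181.0; POMP, 163.4). It lay at 47 of 48 spliceosome genes (LSM7, 141.1; PRPF6, 123.5) and 57 of 67 genes of RNA polymerase II, the general factors and Mediator (POLR2H, 164.7; MED22, 152.2). Chaperones had 28 of 32 (HSPH1, 196.0; HSP90AA1, 149.0), the nuclear pore 28 of 31 (NUP50, 138.5), replication licensing and fork genes 39 of 44 (PCNA, 122.8), mitochondrial import 31 of 34 (TIMM29, 167.3), the V-ATPase, which acidifies organelles, 14 of 16, the COP9 signalosome and cullin ligases 26 of 30, and RNA exosome and decay genes 33 of 42. H3K4 methyltransferase complexes, the writers of the mark, had 16 of 21 (KMT2D, 149.0; KMT2B, 173.2). In these 11 lists all genes with H3K4me3 had an EZH2 peak of this library, and those without a member had a control EZH2 peak at the start. The median member height ran from 74.5 over an H3K4me3 height of 141.6 for replication to 108.1 over 216.7 for chaperones.

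Androgen response and clock genes were near the 73.5% background among genes with H3K4me3 (29 of 41, 70.7%, and 16 of 22, 72.7%), histone genes had 39 of 45 (86.7%) and homeobox genes 22 of 47 (46.8%). Of 46 androgen response genes 29 had a member, among them FKBP5 (EZH2 height 129.4), CAMKK2 (122.8) and IDI1 (139.2), and 10 had another EZH2 peak. Of all clock genes 16 of 23 had a member. Canonical histone genes, whose copies are near-identical and so uncertain one by one, had 39 of 57 in all. Of 87 homeobox developmental genes 22 had a member, and 47 of the 87 had H3K27me3 at the start. Another 39 had an EZH2 peak that was no member. Of these 39, 35 had H3K27me3 and 35 a control EZH2 peak at the start. The rule leaves out EZH2 peaks that overlap either. With the EZH2 list cut to the length of the sgC DMSO list, 9 homeobox genes had a member. At the 22 genes the median member height was 26.8 over an H3K4me3 height of 44.9. Within the HOXC cluster of body-axis genes, HOXC13 had a height of 120.2 and HOXC12 of 22.2, over H3K4me3 heights of 256.6 and 27.3. HOXC11 (H3K4me3 height 26.6) and HOXC10 (15.1) had H3K4me3 and no EZH2 peak. The HOXC genes were picked after their values were seen.

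Marker genes checked the cell type on the H3K4me3 libraries. Of 12 luminal prostate markers 11 had H3K4me3 in sgPRKCI enzalutamide, and KRT8 had no peak within 1 kb of the starts used here. None of 7 basal epithelial markers had it there, 1 of 10 leukocyte markers did (CD68), and 1 of 10 endothelial and fibroblast markers did (COL1A1). No gene of the last 3 lists had a member. Members lay at 9 of the 11 luminal markers with H3K4me3 (81.8%), beside 73.5% of all genes with H3K4me3. The count was 10 with a 5 kb window, and also 10 with both annotated ends of every gene as starts. CDH1, the epithelial cadherin, had a member of height 126.1 and the androgen-induced protease gene TMPRSS2 73.2. The kallikrein genes KLK2 and KLK3, classical androgen-induced genes, had low H3K4me3 (14.4 and 33.1 in sgPRKCI enzalutamide) and no EZH2 peak within 1 kb of a start in any of the 4 libraries. Of 54 keratin genes 2 had H3K4me3 at a start, and 1 had a member, the luminal KRT18 (94.7).

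**Figure D4:**
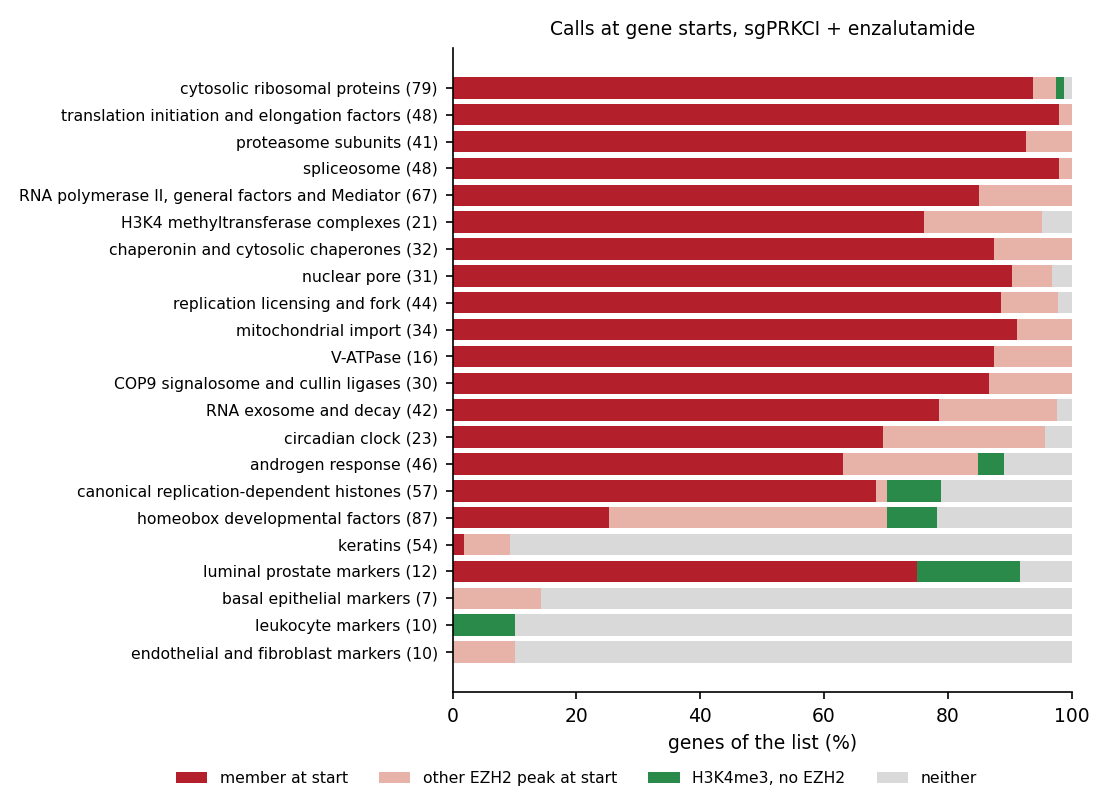
Share of each gene list (horizontal, %) with a member peak within 1 kb of a start, with another EZH2 peak, with H3K4me3 and no EZH2 peak, or with neither, in sgPRKCI enzalutamide; the number of genes is in brackets. Lists of broadly expressed machinery are filled with members (74 of 79 ribosomal protein genes), and 22 of 87 homeobox genes and 1 of 54 keratin genes have one. In these 3 lists 78, 47 and 2 genes have H3K4me3 at a start.

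Promoters with a member were CpG-rich. Over 9920 RefSeq promoters of 300 bases with a member within 1 kb of the start, the median was 66.0% GC and 27 CG dinucleotides, and the observed over expected CpG ratio was 0.853. Of these, 85.4% were CpG-rich, taken as a ratio of at least 0.6 with at least 50% GC. All 22132 coding promoters had medians of 62.3%, 21 and 0.738, with 60.02% CpG-rich. The 1309 promoters with H3K27me3 and an EZH2 call had 67.3%, 26 and 0.781, with 74.3% CpG-rich. The 500 promoters with H3K4me3 and neither an EZH2 call nor H3K27me3 had 58.5%, 12 and 0.517, with 39.0% CpG-rich. The pair shown above lies on either side of these medians, KLK3 with a ratio of 0.072 and ZNF347 with 0.961. H3K4me3 height ran along with CpG content. At promoters with no H3K27me3, 53.3% were CpG-rich where H3K4me3 height was under 30, and 71.3%, 80.4%, 86.9% and 89.4% at heights of 30 to 60, 60 to 100, 100 to 150 and above 150. In the same bins 40.5%, 94.4%, 99.2%, 99.5% and 99.8% of promoters had an EZH2 call.

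Short motifs were counted in the same 300 bases, on both strands and with overlaps between motifs allowed. The GC box of Sp and KLF factors (GGGCGG) was in 73.0% of promoters with a member, 56.3% of all promoters and 45.6% of those with H3K4me3 and neither EZH2 nor H3K27me3. The ETS motif (CCGGAAG) was in 21.6%, 12.8% and 6% of the same sets, the YY1 motif (AAGATGGC) in 5.998%, 3.54% and 1.60%, and the NRF1 core motif (GCGCATG) in 8.33%, 5.26% and 2%. The cAMP response element (TGACGTCA) was in 3.53%, 2.26% and 0.40%, and the E-box (CACGTG) in 10.5%, 8.34% and 6.80%. The CCAAT box (CCAAT) was in 35.7%, 34.6% and 34.6%. The TATA box (TATAAA) was in 4.63%, 9.46% and 11.6%. All 5 motifs that hold CG, and the YY1 motif, which does not, were thus more frequent with a member than in either other set. Of the 500 promoters of the third set, the YY1, NRF1 and cAMP motifs were in 8, 10 and 2. At 1309 promoters with H3K27me3 and an EZH2 call the GC box was in 67.7%, the ETS motif in 3.90% and the YY1 motif in 0.84%. A match is a description of the letters and not a bound site. The 300 bases end 50 after the start, while the median member summit lay 167 bp into the gene.

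**Figure D5:**
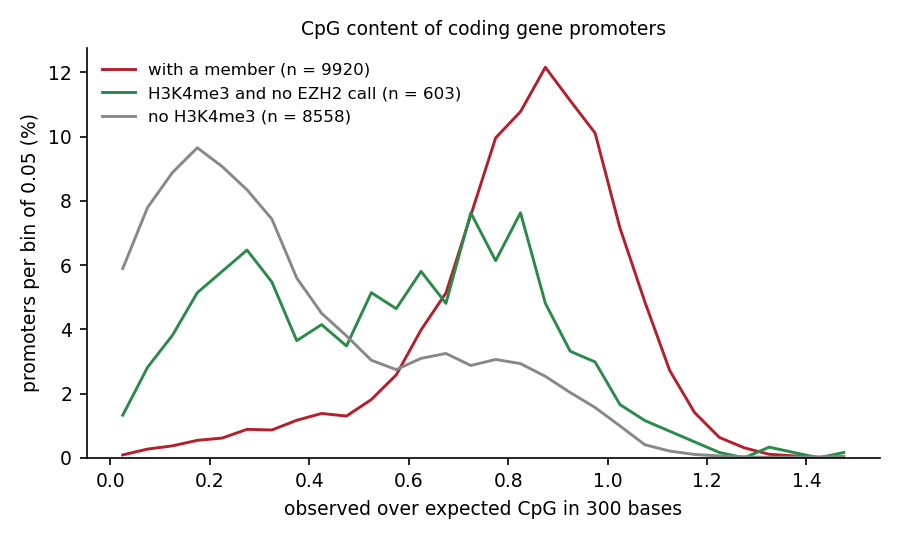
Observed over expected CpG ratio of 300-base coding promoters (horizontal) as the share of promoters in bins of 0.05 (vertical, %), for promoters with a member peak (9920), with H3K4me3 and no EZH2 call (603) and with no H3K4me3 (8558). Promoters with a member have a median of 0.853, and those with no H3K4me3 of 0.303.

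Named members show how far single sites followed the general line. The highest fold enrichment, 112.3, was at the shared start region of GPS1 and RFNG (chr17:82050382-82053390), followed by TOR1A, an ATPase of the endoplasmic reticulum, at 90.2. ZNF584, FOXK2, CAMTA2, KIAA0753 with TXNDC17, QARS1, DDX55, ADNP and ZNF529 made up the rest of the 10, down to 76.2. Their EZH2 heights were 131.3 to 194.1 and stood at 47.7% to 60.2% of H3K4me3. At GPS1 and RFNG the H3K4me3 height with DMSO was 293.4 under sgC and 262.9 under sgPRKCI, and with enzalutamide 376.4 and 362.9.

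The widest member spanned 11889 bp at TNRC18 (chr7:5418442-5430330), inside an H3K4me3 peak of 12405 bp. The next lay at LOC124905135 and LINC02939 (8171 bp), GATA2 (7011 bp), a luminal pioneer factor gene, PTCH1 (6842 bp), the Hedgehog receptor gene, and TBX3 (6663 bp), a T-box factor gene. At GATA2 (chr3:128486337-128493347) the EZH2 height was 147.7, 50.1% of H3K4me3, and at TBX3 (chr12:114678435-114685097) it was 93.4, 36.9% of H3K4me3.

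A small number of members left the line. EZH2 was higher than H3K4me3 at 134 members. The largest excess among members with an H3K4me3 fold enrichment of at least 10 was at BRD3OS (chr9:134024879-134026388), with an EZH2 height of 444.3 and an H3K4me3 height of 182.6, a ratio of 243.4%. The caller's local background for EZH2, in pileup units that are scaled by 0.890 in this library, was 34.0 there and 1.36 at GPS1. For H3K4me3, which has no such scaling, it was 10.5 at BRD3OS. The next 4 ratios ran from 117.9% to 162.9%, among them TJP3 on chromosome 19, at EZH2 heights of 28.1 to 71.9. The 5 lowest ratios, 3.43% to 4.10%, were narrow members of 194 to 293 bp whose summits lay 1210 to 3870 bp from the H3K4me3 summit, inside H3K4me3 peaks of 2978 to 5700 bp.

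The PRKCI gene itself had a member (chr3:170221891-170223542) with a fold enrichment of 27.4 and a height of 128.7, 61.5% of H3K4me3. Its H3K4me3 height with DMSO was 171.1 under sgC and 150.4 under sgPRKCI, and with enzalutamide 220.6 and 209.1. A promoter mark does not read an edited coding sequence, so these values do not check the guide. The peak at the EZH2 gene overlapped a control EZH2 peak and is no member.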

How the data were processed

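CUT&RUN peak lists of 12 libraries were used (EZH2, H3K4me3 and H3K27me3 in 4 conditions, 1 library each); those of the 4 IgG libraries were not used here. The submitters' processing notes name Trimmomatic, FastQC, Bowtie2, SAMtools, MACS2 and the build GRCh38, with no version or option. The authors deposited broad peaks for H3K27me3 and narrow peaks for the other antibodies, as the column layout shows. Each deposited peak has a fold enrichment (a ratio to local background), a −log10 p, a −log10 q and a score made from it; narrow peaks, as deposited by the authors, also have a summit offset in bp. These are the authors' values, and folds of separate lists are not on a common scale.

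Summit fragments and local background were recovered from the fold and −log10 p, to within 0.002, for at least 99.98% of peaks in each narrow list, with a pileup scale of 0.890 for EZH2 in sgPRKCI enzalutamide; coverage is the lowest local background after undoing that scale. Read totals were not used here. Overlap meant at least 1 bp. Gene starts came from the RefSeq promoter table for 15812 of 19974 coding genes and, for the others, from both annotated ends, since the gene table has no strand. All 825 list genes matched. With 1 library per condition no test was made. Members and lists were chosen with earlier results of these data known. Named were the 10 members of highest fold, the 5 highest and 5 lowest EZH2 to H3K4me3 ratios, the 5 widest, 5 uncalled H3K4me3 peaks, 5 members called in 2 other libraries, up to 3 genes of each list by −log10 q, markers, and PRKCI and EZH2; some of these are not reported here. Alternatives changed thresholds, overlaps, windows, list length and gene starts. Scripts were tested on made-up peaks. Python 3.11.15, numpy 2.4.6, pandas 2.3.3, scipy 1.17.1 and matplotlib 3.10.9 were used.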

Additional observations from a re-analysis of the deposited data

How the results depend on the processing

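No paired analysis was possible because each condition has 1 library and no result comes from a test. The member count stayed within 1.5 times 10897 under all 8 alternatives of the rule. With an EZH2 −log10 q of at least 10, the share of members at coding starts was 80.7%, the median width 1366 bp, r over all members 0.897 and the share of H3K4me3 peaks with an EZH2 call 67.7%. With the EZH2 list cut to the length of the sgC DMSO list, these were 88.2%, 1528 bp, 0.914 and 57.2%, and 9 homeobox genes had a member. Without the condition on EZH2 in sgC DMSO, 78.1% were at coding starts, r was 0.887 and 8.49% had an EZH2 peak in sgPRKCI DMSO or sgC enzalutamide, since peaks shared with the control then count. With H3K4me3 −log10 q of at least 10, 81.8% of H3K4me3 peaks held a call. Windows of 500 bp and 5 kb gave 75.2% and 83.2% at coding starts, and in the 5 kb window 2 keratin, 1 leukocyte and 2 endothelial or fibroblast genes had a member. Fold enrichment in place of height gave an r of 0.836. Chosen after seeing the data, the highest member of each H3K4me3 peak gave 0.945, starts from the promoter table alone 65.4% at coding starts and both annotated ends of every gene 71.8%, with 3 keratin genes and 1 leukocyte gene. Depth limits every call: a missing peak means that none passed the deposited threshold, and intervals cover counting error only.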
